A study of Mus musculus with 6 samples.

Results

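The hepatocyte transporters that take up bile acids and other organic anions from blood, and those that export them into bile or back into blood, were followed in liver RNA of Arid2 WT and Arid2 LKO mice. The set was named by symbol and not picked by measured values, but earlier results of these data were known when it was chosen. It held 10 of the 54532 gene identifiers of the series. It comprised Slc10a1, Slco1a1, Slco1a4, Slco1b2 and Slco2b1 for sinusoidal uptake, Abcb11, Abcb4 and Abcc2 for canalicular export, and Abcc3 and Abcc4 for sinusoidal export. Of these, 9 passed a filter of a mean of at least 0.5 FPKM (reads per kilobase of exon, scaled to the size of each library) over the libraries. The remaining member, Abcc4, was below it.

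The study has 6 liver libraries, 3 from WT mice and 3 from mice labelled as carrying a liver-specific knockout of Arid2 (LKO), which encodes a subunit of a chromatin remodelling complex of the SWI/SNF type. All animals are labelled as untreated. Strain, age, sex, the driver of the deletion and the alleles of the WT animals do not appear in the labels. By its title, the series is about fat storage in the liver and the kinase JAK2. Values listed 3 at a time are replicates 1, 2 and 3 in that order, and ± marks the SD over 3 libraries unless SE is written.

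Hepatocytes are polarised cells. Their sinusoidal membrane faces blood and takes up conjugated bile acids mainly through the sodium-dependent carrier encoded by Slc10a1, while the SLCO carriers take up bile acids, bilirubin, hormones and drugs without sodium. Their canalicular membrane faces the bile canaliculus, where ATP-driven pumps secrete bile salts, phospholipid and organic anions. Pumps of the ABCC family on the sinusoidal side return bile acids and glucuronides to blood and are known to increase when secretion into bile is impaired. The bile acid receptor FXR controls several of these genes.

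Recovered reads ranged from 13947777 to 18159281 per library, and between 16190 and 18152 genes were above 0. The libraries numbered 1 of both genotypes lay together at one end of a first principal component that held 43.7% of the variance, at -42.6 (WT) and -46.9 (LKO). LKO replicate 3 lay at the other end, at 51.7, the farthest from 0 of the 6 libraries. The second component held 29.06% of the variance. On it the WT libraries lay at -31.65, -21.9 and -24.62, below the LKO libraries at 41.59, 36.27 and 0.3075. Mitochondrial transcripts took 20.7%, 10.2% and 18.5% of reads in WT and 27.6%, 7.72% and 4.76% in LKO. Arid2 itself did not separate the groups (1.74 to 2.65 FPKM in WT and 1.33 to 2.55 in LKO, limma adjusted p = 0.974), so every direction is between libraries labelled WT and LKO. These Arid2 values cover the whole gene and all cells of the liver, so they do not test the deletion itself. The titles name liver and no cell type. Alb, a hepatocyte marker, was at 24010 to 39174 FPKM in WT and 30705 to 44282 in LKO. Nothing in the labels says that the libraries of a group came from separate animals, so the p-values cover only the spread among these samples, which may be technical. In whole liver, fewer cells of a type and less RNA per cell cannot be told apart.

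RefSeq promoter sequences (GRCm38.p6) were found for 9 of the 10 genes, with 13 annotated starts. The 250 bases before the start were searched on both strands for the inverted repeat bound by FXR (IR-1, AGGNCA and TGACCT with 1 base between them), a direct repeat bound by HNF4A and PPAR (DR-1, AGGNCA repeated after 1 base), an HNF1 site (GTTAAT and ATTAAC with 1 base between them) and the antioxidant response element bound by NRF2 (TGACNNNGC). Abcb11 and Slco1b2 held an IR-1 match, which 11 of the 32851 promoters searched held in all (0.0335%). Their matches began at -63 and -88 bases from the start. Abcc4, at both of its starts, and Abcc2 held an antioxidant match, a motif present in 10.2% of promoters. No member held the DR-1 motif (0.338% of promoters) or the HNF1 motif (0.00913%). A match is a description of letters, not a site shown to be used, and the motifs were chosen after results of these data were known. The sequences of Abcb11 and Slco1b2 are given for their IR-1 match, that of Abcc4 for its antioxidant match, and that of Abcb4 because its transcript separated the groups. Each runs 5′ to 3′ on the strand of the gene, with matches in capitals and all other bases in lower case.
Abcb11, minus strand, chr2:69342617-69342866: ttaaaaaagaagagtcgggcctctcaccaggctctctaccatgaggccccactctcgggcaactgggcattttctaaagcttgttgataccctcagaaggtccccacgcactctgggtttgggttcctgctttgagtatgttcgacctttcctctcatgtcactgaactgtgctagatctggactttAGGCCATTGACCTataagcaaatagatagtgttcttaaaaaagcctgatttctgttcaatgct
Slco1b2, plus strand, chr6:141629268-141629517: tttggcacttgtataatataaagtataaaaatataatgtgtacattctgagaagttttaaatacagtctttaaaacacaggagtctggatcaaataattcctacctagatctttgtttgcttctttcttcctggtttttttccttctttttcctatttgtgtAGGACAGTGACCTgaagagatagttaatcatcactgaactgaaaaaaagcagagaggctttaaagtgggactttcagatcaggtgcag
Abcb4, plus strand, chr5:8893471-8893720: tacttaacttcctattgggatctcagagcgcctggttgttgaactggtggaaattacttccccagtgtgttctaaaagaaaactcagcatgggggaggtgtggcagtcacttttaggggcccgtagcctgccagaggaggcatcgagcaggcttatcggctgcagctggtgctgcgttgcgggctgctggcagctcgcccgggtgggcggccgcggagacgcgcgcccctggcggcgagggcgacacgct
Abcc4, minus strand, chr14:118706220-118706469: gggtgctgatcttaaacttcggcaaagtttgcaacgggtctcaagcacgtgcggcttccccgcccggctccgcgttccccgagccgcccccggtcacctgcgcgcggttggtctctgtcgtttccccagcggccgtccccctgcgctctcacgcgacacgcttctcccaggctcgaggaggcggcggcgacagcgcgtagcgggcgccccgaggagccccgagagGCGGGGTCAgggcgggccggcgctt

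Of the 9 transporters tested, Abcb4 was higher in every LKO library than in any WT library, Abcc3 was higher on average, and the 4 SLCO genes, Abcb11 and Abcc2 were lower on average with overlapping groups. None passed the threshold over all genes (0 of 9; limma-trend, adjusted p under 0.05) in either direction, where 0.0428% of the 11672 genes tested did (0.00857% higher and 0.0343% lower in LKO). At an unadjusted p under 0.05, 1 of 9 members was found, higher in LKO, and 9.22% of all genes (4.28% higher and 4.93% lower), and voom on the recovered reads also called 0 members. The median log2 difference, on the log2(FPKM + 1) scale used throughout, was -0.41 over the 9 members and 0.03 over all genes. Of the members 3 lay above 0 and 6 below, against 6310 and 5362 of all genes.

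**Figure D1:**
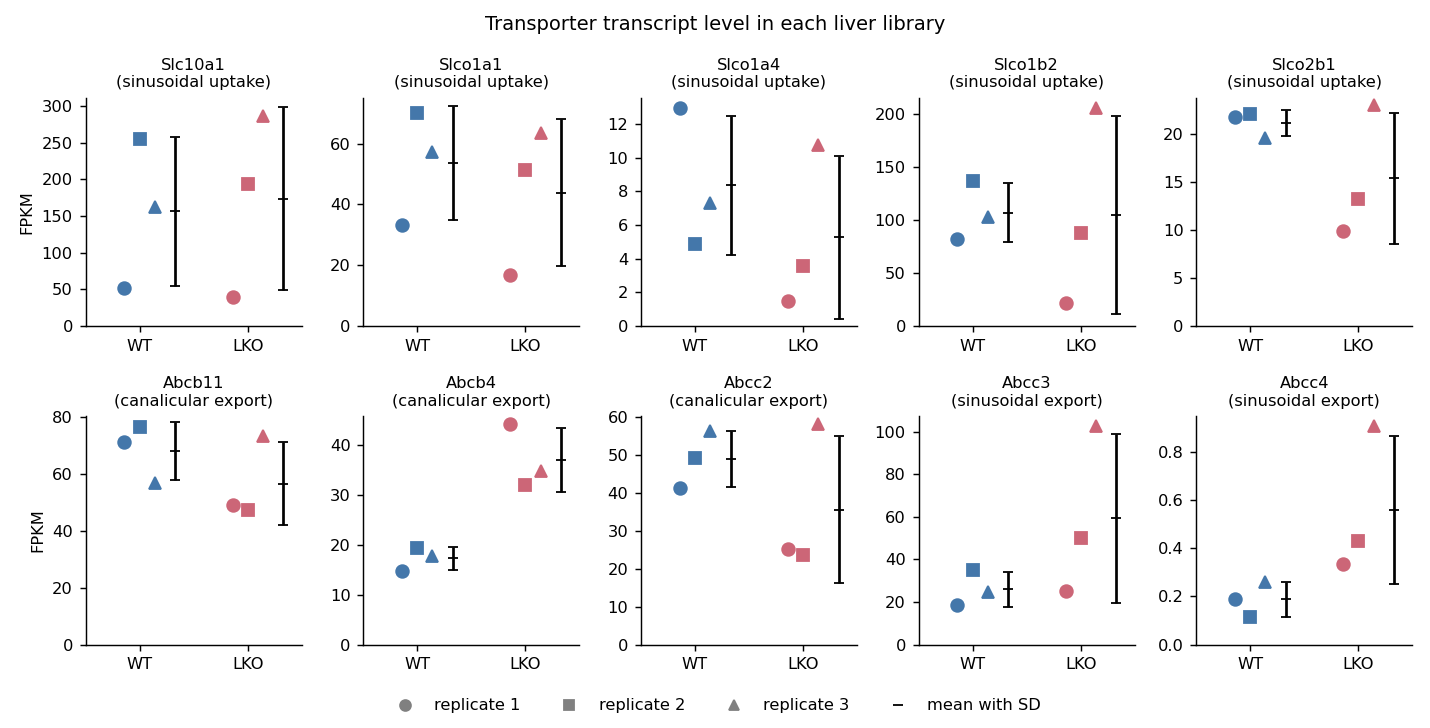
FPKM of each of the 10 transporter genes (vertical axis, from 0, scaled per gene) in the 3 WT and 3 LKO libraries. Symbols mark the replicate number and bars the mean with its SD. Abcb4 and Abcc4 are the genes whose groups do not overlap, and LKO replicate 1 is the lowest library for each of the 5 uptake genes.

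The summed level of the 5 uptake carriers had close means in the genotypes but differed widely between libraries of the same genotype. By gene, 4 of the 5 log2 differences lay below 0 and 1 above. Their median was -0.51, and 0.16 without LKO replicate 1. All 5 were lowest of the 6 libraries in LKO replicate 1, and among the LKO libraries all 5 were highest in LKO replicate 3. Slc10a1, the sodium taurocholate cotransporter (NTCP; chromosome 12, 80953183 to 80968705, minus strand, mm10), had 51.6, 255 and 162 FPKM in WT. The LKO libraries had 39.9, 194 and 287 FPKM. Both libraries numbered 1 were low, and the groups overlapped almost completely. The log2 difference was 0.02 ± 0.85 (SE; limma, 95% interval -1.97 to 2.01, adjusted p = 0.998). It was below 0 when WT replicate 1 (-0.63), LKO replicate 2 (-0.26) or LKO replicate 3 (-0.54) was left out.

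Slco1b2, which takes up unconjugated bile acids and bilirubin conjugates (OATP1B2; chromosome 6, 141629518 to 141686646, plus strand), had 81.9, 137 and 103 FPKM in WT. In LKO replicates 1 to 3 it was at 21.4, 87.7 and 206 FPKM, with the highest 9.61-fold above the lowest, against 1.68-fold in WT. The highest and the lowest of all 6 values were thus both in LKO, and the log2 difference of -0.51 ± 0.75 (SE; limma adjusted p = 0.901) became 0.36 without LKO replicate 1.

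Slco1a1, an organic anion carrier that is more abundant in livers of male mice (OATP1A1; chromosome 6, 141907282 to 141946962, minus strand), had 33.2, 70.1 and 57.2 FPKM in WT. The LKO libraries had 16.7, 51.2 and 63.5 FPKM. LKO replicates 2 and 3 lay inside the WT range, so the difference of -0.41 ± 0.54 (SE; limma adjusted p = 0.889) rested on LKO replicate 1 and was 0.16 without it. Slco1a4, a carrier of bile acids and cardiac glycosides (OATP1A4; chromosome 6, 141805440 to 141856199, minus strand), had 12.9, 4.87 and 7.30 FPKM in WT against 1.51, 3.54 and 10.7 FPKM in LKO. Only LKO replicate 3 reached the WT range. The log2 difference was -0.78 ± 0.58 (SE; limma adjusted p = 0.767), and 0.07 when both libraries numbered 1 were left out. Without LKO replicate 1 it was -0.27 and without LKO replicate 3 it was -1.38.

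Slco2b1, a broadly expressed carrier of steroid sulfates (OATP2B1; chromosome 7, 99657804 to 99711340, minus strand), was the steadiest uptake gene in WT, at 21.7, 22.0 and 19.5 FPKM in replicates 1 to 3. In LKO replicates 1 to 3 it was at 9.87, 13.2 and 23.0 FPKM. LKO replicates 1 and 2 lay below every WT library and LKO replicate 3 above them (log2 difference -0.51 ± 0.34 SE, 95% interval -1.30 to 0.28, limma adjusted p = 0.724). Summed over the 5 uptake genes, the level was 347 ± 144 FPKM in WT and 343 ± 250 in LKO (SD, n = 3).

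Of the canalicular pumps, Abcb4 was 2.14-fold higher in LKO by the ratio of means, and the other pumps had lower means in LKO. Abcb4 encodes the floppase (MDR2) that moves phosphatidylcholine into bile, where it protects the ducts from bile salts (chromosome 5, 8893717 to 8959231, plus strand). It had 14.8, 19.3 and 17.8 FPKM in WT, from 2604 to 3184 reads. The LKO libraries had 44.3, 32.0 and 34.8 FPKM, from 4694 to 6195 reads. The lowest LKO library lay above the highest WT library. Groups that did not overlap, in either direction, were found for 1 of the 9 tested members (Abcb4) and for 15.4% of all genes. The log2 difference was 1.05 ± 0.27 (SE; limma, 95% interval 0.42 to 1.68, unadjusted p = 0.00512, adjusted p = 0.294). It was between 0.92 and 1.15 with any single library left out and 0.82 with both libraries numbered 1 left out. Array quality weights, with which 621 genes were called higher and 574 lower over the whole table, took it past the threshold (limma adjusted p = 0.0293), and over all alternatives the adjusted p ran from 0.0293 to 0.736. An exact permutation test cannot go under p = 0.1 with 3 against 3 libraries, and Abcb4 reached that value (two-sided).

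Abcb11, the bile salt export pump (BSEP; chromosome 2, 69238282 to 69342616, minus strand), had 71.0, 76.5 and 56.8 FPKM in WT against 49.1, 47.1 and 73.3 FPKM in LKO. LKO replicates 1 and 2 lay below every WT library and LKO replicate 3 inside the WT range (log2 difference -0.28 ± 0.31 SE, limma adjusted p = 0.851). Abcc2, which exports bilirubin glucuronides and glutathione conjugates (MRP2; chromosome 19, 43782192 to 43840740, plus strand), had 41.3, 49.3 and 56.2 FPKM in WT. In LKO replicates 1 to 3 it was at 25.1, 23.6 and 58.0 FPKM. LKO replicates 1 and 2 lay below every WT library and LKO replicate 3 above them, as for Slco2b1. Its log2 difference of -0.56 ± 0.40 (SE; limma adjusted p = 0.752) was -0.97 without LKO replicate 3 and -0.34 without LKO replicate 2.

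The level of Abcb4 relative to Abcb11 within a library does not depend on how libraries are scaled, and was computed after the values were seen. There were 0.208, 0.252 and 0.313 units of Abcb4 FPKM per unit of Abcb11 FPKM in WT, and 0.903, 0.680 and 0.474 in LKO. The groups did not overlap (difference of mean log2 ratios 1.38, exact permutation test, two-sided, p = 0.1, the smallest it can give). Of the 9 ratios of Abcb4 to another member, 4 were higher in every LKO library, those to Slco1a1, Slco2b1, Abcb11 and Abcc2. The other 5 overlapped, and that to Abcc4 was lower on average in LKO (difference of mean log2 ratios -0.42). The 9 ratios share Abcb4, whose own values already separated the groups. They are not independent and add no separate test, and ratios to genes outside the set were not computed.

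**Figure D2:**
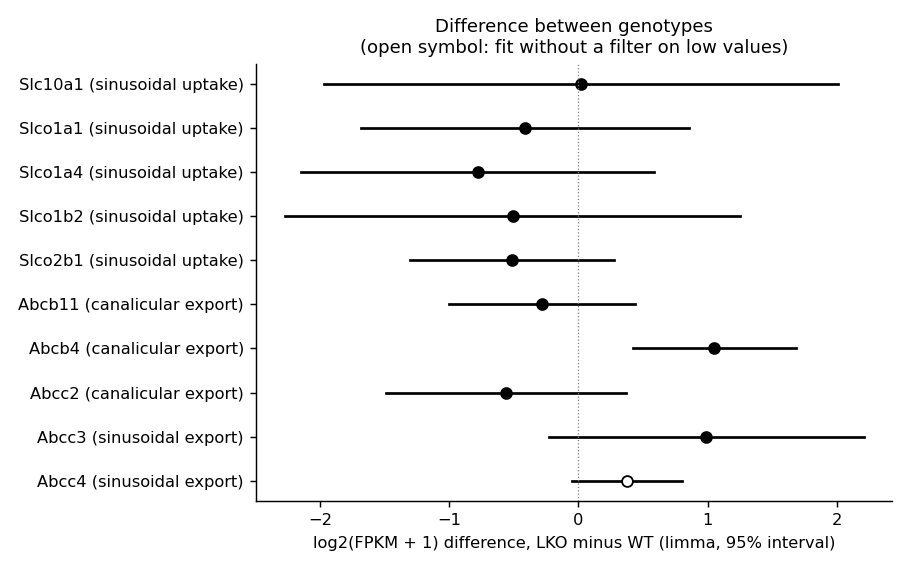
Log2(FPKM + 1) difference between LKO and WT (horizontal axis) for each of the 10 transporter genes, with its 95% interval from limma. The open symbol marks Abcc4, fitted without a filter on low values. The interval of Abcb4, 0.42 to 1.68, is the one that does not contain 0 before adjustment.

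The sinusoidal export pumps were at higher mean levels in LKO, with LKO replicate 3 far above the rest. Abcc3, which returns bile acids and glucuronides to blood (MRP3; chromosome 11, 94343295 to 94392997, minus strand), had 18.6, 34.9 and 24.5 FPKM in WT. The LKO libraries had 25.3, 49.9 and 103 FPKM. LKO replicate 1 lay inside the WT range, and the other LKO libraries lay above it. The log2 difference was 0.99 ± 0.52 (SE; limma, 95% interval -0.23 to 2.20, adjusted p = 0.635), 0.48 without LKO replicate 3 and 1.48 without LKO replicate 1.

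Abcc4, an exporter of bile acids together with glutathione and of cyclic nucleotides (MRP4; chromosome 14, 118482692 to 118706219, minus strand), was the least abundant member. It had 0.187, 0.116 and 0.261 FPKM in WT, from 23, 13 and 26 reads, against 0.333, 0.431 and 0.906 FPKM in LKO, from 27, 43 and 110 reads. Every LKO library lay above every WT library, but the exact 95% Poisson intervals of WT replicate 3 (0.170 to 0.382 FPKM) and LKO replicate 1 (0.219 to 0.484 FPKM) overlapped. These intervals cover counting error only, and 3 reads on this gene correspond to 0.0244 to 0.037 FPKM. Without a filter on low values the log2 difference of Abcc4 was 0.37 ± 0.18 (SE; limma, 95% interval -0.05 to 0.80, adjusted p = 0.773), on a scale that understates changes of low genes.

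As a share of the summed FPKM of all 10 transporters, the 2 sinusoidal exporters separated the genotypes. Their share averaged 5.18% ± 0.25 in WT and 11.02% ± 1.04 in LKO (SD, n = 3), without overlap. The exact permutation test, two-sided, gave p = 0.1, the smallest possible here, and the share was computed after the values were seen. Nearly all of it was Abcc3, at 5.35%, 5.21% and 4.85% in WT and 10.84%, 9.92% and 11.98% in LKO. The share of the uptake genes overlapped between groups, at 58.0%, 73.1% and 69.2% in WT and 38.3%, 69.6% and 68.6% in LKO. That of the canalicular pumps overlapped as well, at 21.7% to 36.6% in WT and 19.3% to 50.7% in LKO. In LKO replicate 1 the FPKM of Abcc3 was within the WT range and the sum of the uptake genes was 89.4 FPKM, the lowest of the 6 libraries. In LKO replicate 3 Abcc3 was far above WT and the uptake sum was 590 FPKM, the highest.

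**Figure D3:**
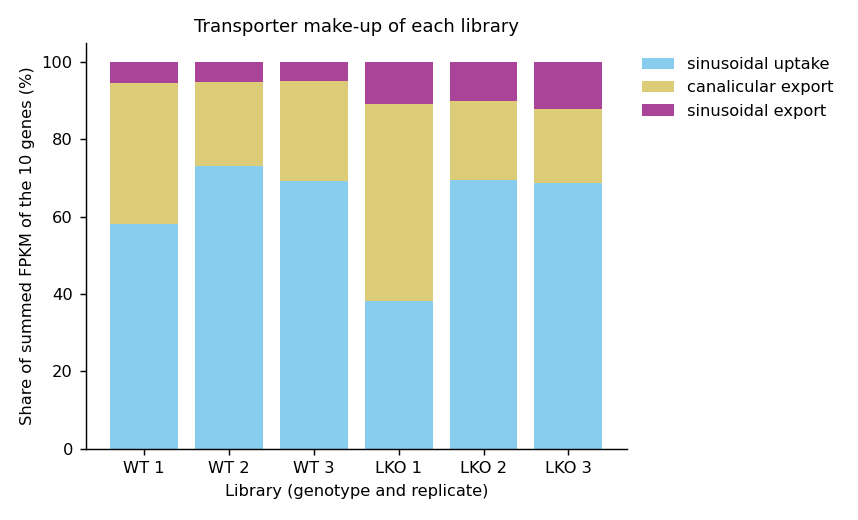
Share of the summed FPKM of the 10 transporter genes (vertical axis, percent) taken by sinusoidal uptake, canalicular export and sinusoidal export genes in each library (horizontal axis). Sinusoidal export averages 5.18% in WT and 11.02% in LKO, without overlap.

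By mean FPKM, the order in WT ran Slc10a1, Slco1b2, Abcb11, Slco1a1, Abcc2, Abcc3, Slco2b1, Abcb4, Slco1a4 and Abcc4. In LKO, Slc10a1 and Slco1b2 stayed first and second and Slco1a4 and Abcc4 last, Abcc3 stood at rank 3 against 6 in WT and Abcb4 at rank 6 against 8. The gap between the means of Slc10a1 and Slco1b2 was smaller than the SD of Slc10a1 (102 FPKM in WT and 125 in LKO), the spread between libraries. Within a library, Slc10a1 was above Slco1b2 in each LKO library and in WT replicates 2 and 3, and below it in WT replicate 1. In LKO, means next to each other in rank also lay within that spread for Abcc3 (59.4 ± 39.7 FPKM), Abcb11 (56.5 ± 14.6), Slco1a1 (43.8 ± 24.2), Abcb4 (37.0 ± 6.45) and Abcc2 (35.6 ± 19.5). Every LKO value of Abcb11 lay above every LKO value of Abcb4, however, and Abcb11 was above Abcc2 within each LKO library. In WT, Slco1a1 (53.5 ± 18.7) overlapped with both Abcb11 (68.1 ± 10.2) and Abcc2 (48.9 ± 7.45), and every Abcb11 value lay above every Abcc2 value. Every Abcb4 value (mean 17.3 ± 2.30) lay below every Slco2b1 value (21.1 ± 1.38) and above every Slco1a4 value (8.36 ± 4.13).

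The SD of log2 values was larger in LKO for all 9 members with a mean of at least 5 FPKM, and for 70.5% of the 4687 genes at that level. Its median over these members was 0.37 in WT and 0.99 in LKO, against 0.32 and 0.48 over those genes. Abcb4 had the smallest SD of the 9 in LKO (0.24) and Slco1b2 the largest (1.62). Of all 10 members, 7 were lowest among LKO libraries in replicate 1 and 9 were highest in replicate 3, with Abcb4, highest in replicate 1, as the exception.

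**Figure D4:**
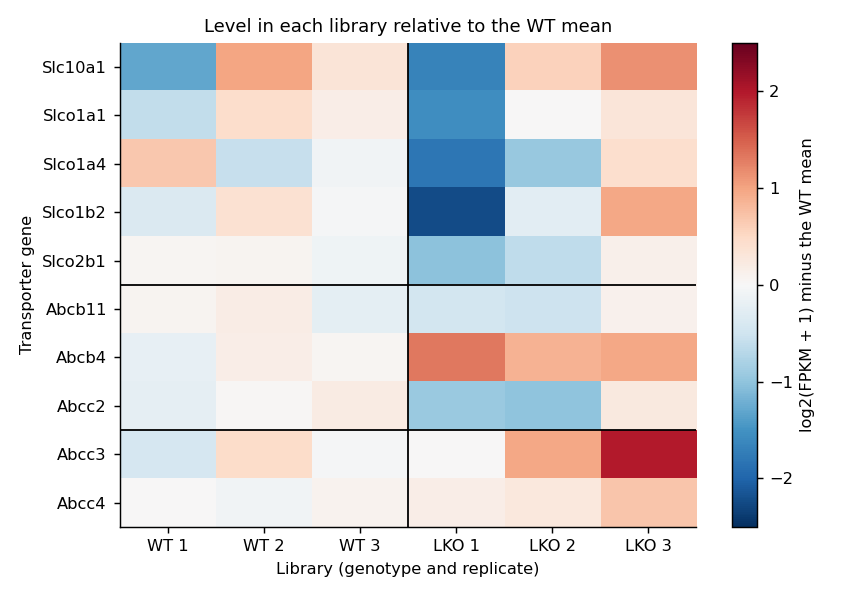
Log2(FPKM + 1) of each transporter gene (rows) in each library (columns) minus the mean of the 3 WT libraries, in colour. Horizontal lines separate uptake, canalicular export and sinusoidal export genes. LKO replicate 1 is blue for all uptake genes, and Abcb4 is red in all 3 LKO libraries.

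Other measures also divided the LKO libraries. The summed FPKM of 16 acute phase genes was 8038 to 8851 in WT and 13489, 22988 and 8558 in LKO. LKO replicate 3, where Abcb11, Abcc2 and Slco2b1 were within or above the WT range, was thus the LKO library with a sum inside the WT range. The part of the acute phase genes in the transporter values was not tested. Abcb4 was higher in LKO replicate 3 too. Of the 16 acute phase genes 0 passed the threshold (limma), 13 lay above 0 and the median log2 difference was 1.27. Gene by gene, LKO replicate 3 was not always at a WT level. For 5 of the 16, Itih4 and Steap4 among them, every LKO library was above every WT library, and for 1, Apcs, every LKO library was below. Groups did not overlap for 15.4% of all genes. Itih4, a plasma protease inhibitor, averaged 231 ± 15.4 FPKM in WT libraries and 664 ± 38.4 FPKM in LKO libraries (limma adjusted p = 0.175), and Steap4, a metalloreductase, had 12.7 ± 5.64 (WT) and 91.4 ± 99.2 (LKO) (limma adjusted p = 0.392). Lcn2, a siderophore-binding secreted protein, ranged from 0.672 to 7.81 FPKM in WT and stood at 140, 376 and 6.66 FPKM in LKO. Apcs, serum amyloid P, was lower in each LKO library, with a mean of 32.5 ± 12.8 FPKM where WT had 63.6 ± 8.12 (limma adjusted p = 0.425).

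Of 32 other genes of hepatobiliary transport, 20 were tested, 0 passed in either direction (limma), 9 lay above 0 and 11 below, with a median of -0.07. Slc10a2, the apical sodium-dependent bile acid carrier of ileum and bile ducts, had 9.71, 17.1 and 15.1 FPKM in WT against 37.1, 55.5 and 21.9 FPKM in LKO. Every LKO library was above every WT library (log2 difference 1.33 ± 0.40 SE, limma adjusted p = 0.358). Abcg5, part of the sterol exporter of the canalicular membrane, was lower in each LKO library, with a mean of 34.2 ± 8.63 FPKM where WT had 68.4 ± 20.7 (limma adjusted p = 0.455). Its partner Abcg8 was at 24.1 to 27.8 FPKM in WT against 13.4, 20.2 and 53.6 FPKM in LKO. Abcc6, an exporter linked to ectopic mineralisation, had means of 49.6 ± 13.1 (WT) and 26.0 ± 12.7 (LKO) FPKM (limma adjusted p = 0.507), and Abcb1a, a drug exporter, had means of 0.378 ± 0.0906 (WT) and 1.58 ± 1.34 (LKO) FPKM (limma adjusted p = 0.608). Slco1a5 and Slco1a6, neighbours of Slco1a1 and Slco1a4, were listed at 0 in all 6 libraries.

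Abcc3 and Slc10a2 are also genes of bile duct cells, so duct markers were read beside them. The 10 cholangiocyte markers summed to 29.2 to 33.9 FPKM in WT and 20.2 to 41.7 in LKO, and 0 of the 5 tested passed (limma). Krt7 was at most 0.445 FPKM and Cftr at most 0.0824, listed at 0 in WT replicates 1 and 2 and in LKO replicate 3. In LKO replicate 3, where Abcc3 was highest, 7 of the 10 markers were below every WT library (Krt19 at 0.057 and Epcam at 0.129 FPKM among them), 2 were within the WT range and 1, Aqp1, was above it at 12.3 FPKM. In LKO replicate 2, where Slc10a2 was highest, 7 were above every WT library (Krt19 at 3.14 and Epcam at 1.10 FPKM among them), 1 was within the range and 2 were below it. The part of duct cells in the Abcc3 and Slc10a2 values was not tested. Hepatocyte markers summed to 42239 to 56346 FPKM in WT and 47269 to 62686 in LKO. Pericentral hepatocyte markers summed to 1176, 3877 and 4133 FPKM in WT and 1809, 5696 and 5914 in LKO. Most of each sum was Cyp2e1, at 938, 3480 and 3569 FPKM in WT and 1281, 4941 and 5069 FPKM in LKO, which was low in both libraries numbered 1, as was Slc10a1. Glul was also lowest of its genotype in replicate 1, at 82.8 FPKM in WT and 124 in LKO, as was Oat, at 145 and 384 FPKM. Other genes of the list did not follow Cyp2e1: Rhbg (6.66 FPKM), Axin2 and Lgr5 were highest of the LKO libraries in replicate 1. In LKO replicate 1, 4 of the 8 listed genes were above every WT library, Oat and Rhbg among them. All 7 pericentral markers tested lay above 0 (0 passed, limma), with a median log2 difference of 0.49. Their part in the transporter values was not tested. Neutrophil markers summed to 0.803 to 3.74 FPKM in WT and 3.25 to 15.9 in LKO, with Ly6g at 0 throughout, and the sums of endothelial, macrophage, stellate and periportal markers overlapped between the genotypes. Of the 7 periportal markers tested, 2 lay above 0 and 5 below (0 passed, limma), with a median log2 difference of -0.49. Below every WT library were 6 of the 7 in LKO replicate 1, 4 in replicate 2 and 1 in replicate 3. The part of periportal cells in the transporter values was not tested.

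Of 18 bile acid sensors and regulators, 16 were tested, 0 passed (limma), 10 lay above 0 and 6 below, with a median of 0.25. Nr1h4, which encodes FXR, had 97.5, 73.3 and 97.3 FPKM in WT against 123, 65.8 and 50.2 FPKM in LKO, with overlapping groups. Nr0b2, which encodes the FXR-induced repressor SHP, had means of 35.6 ± 17.0 (WT) and 72.8 ± 37.4 (LKO) FPKM with overlapping groups (limma adjusted p = 0.676). Ahr, the aryl hydrocarbon receptor, had means of 5.25 ± 1.48 (WT) and 10.8 ± 1.72 (LKO) FPKM (limma adjusted p = 0.339), Nr5a2, an activator of bile acid synthesis genes, had 5.76 ± 0.985 (WT) and 9.52 ± 2.56 (LKO) (limma adjusted p = 0.559), and Ppara, the fatty acid receptor, had 6.41, 9.60 and 7.99 FPKM in WT and 10.6, 9.89 and 24.9 FPKM in LKO (limma adjusted p = 0.628). For each of these 3 genes every LKO library was above every WT library. The same held for Hnf4a, at 94.9 to 103 FPKM in WT and 107 to 190 in LKO (limma adjusted p = 0.695). These were 4 of the 16 tested regulators, and 0 had every LKO library below, where 15.4% of all genes did not overlap in one direction or the other.

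Of 21 genes of bile acid synthesis and conjugation, 19 were tested, 0 passed (limma), 11 lay above 0 and 8 below, with a median of 0.14. Cyp7a1, the rate-limiting enzyme of the classical pathway, had 23.4, 8.63 and 28.5 FPKM in WT against 1.06, 1.56 and 12.1 FPKM in LKO. LKO replicate 3 lay above WT replicate 2, so the groups overlapped (log2 difference -2.22 ± 0.75 SE, limma adjusted p = 0.425). Cyp7b1, of the alternative pathway, had means of 80.3 ± 27.1 (WT) and 49.3 ± 14.2 (LKO) FPKM (limma adjusted p = 0.669), Cyp39a1, an oxysterol hydroxylase, had 1.56 ± 1.33 (WT) and 4.93 ± 2.70 (LKO) (limma adjusted p = 0.521), and Hsd17b4, of peroxisomal side chain shortening, had 87.8 ± 30.4 (WT) and 140 ± 25.9 (LKO) (limma adjusted p = 0.624).

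**Figure D5:**
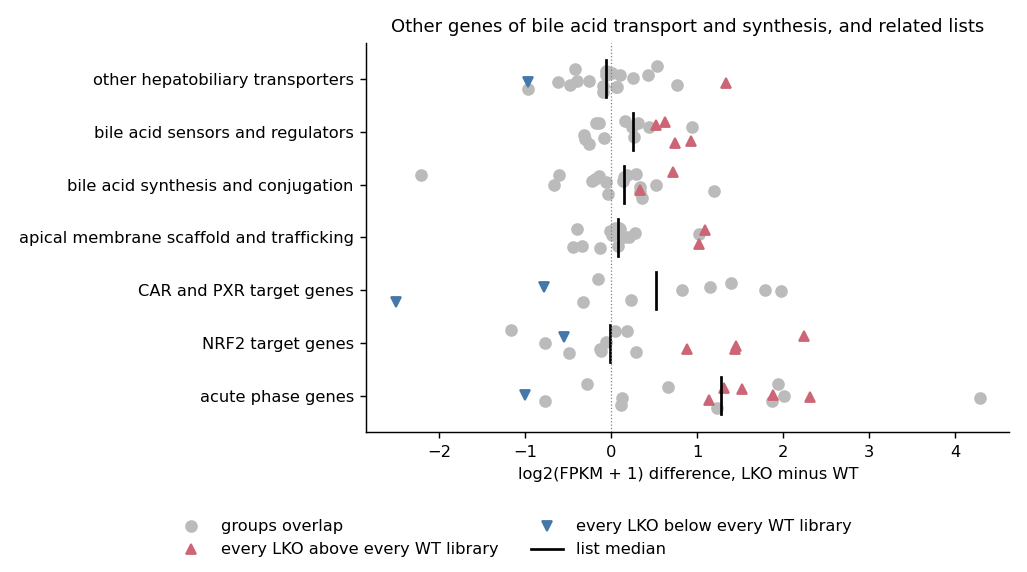
Log2(FPKM + 1) difference between LKO and WT (horizontal axis) for each tested gene of the 7 lists read beside the transporters (vertical axis). Triangles mark genes whose groups do not overlap and vertical bars list medians, which run from -0.07 for the other transporters to 1.27 for the acute phase genes.

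Of 16 genes for the apical membrane scaffold and vesicle traffic, 16 were tested, 0 passed (limma) and 11 lay above 0, with a median of 0.08. Pdzk1, the scaffold that holds OATP1A1 at the membrane, had 0.511, 3.98 and 1.28 FPKM in WT against 0.443, 6.40 and 12.2 FPKM in LKO. It was lowest in LKO replicate 1, as was Slco1a1. Ezr, the membrane linker ezrin, had means of 0.631 ± 0.109 (WT) and 2.58 ± 1.67 (LKO) FPKM, higher in all 3 LKO libraries than in any WT library (limma adjusted p = 0.454). Vipas39, of apical sorting, had means of 5.71 ± 1.98 (WT) and 3.91 ± 1.24 (LKO) FPKM (limma adjusted p = 0.747).

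The xenobiotic receptors CAR and PXR and the antioxidant factor NRF2 are known to raise Abcc3 and Abcc4, and their other targets were read beside these genes. Of 14 NRF2 targets tested from 15 listed, 0 passed (limma), 7 lay above 0 and 7 below, and the median was -0.01. Srxn1, which repairs peroxiredoxins, was at 6.05 ± 0.253 FPKM in WT against 44.9, 56.3 and 12.9 FPKM in LKO (limma adjusted p = 0.244). Gclc, of glutathione synthesis, had means of 42.0 ± 11.8 (WT) and 118 ± 38.8 (LKO) FPKM (limma adjusted p = 0.281), Hmox1, haem oxygenase, had 2.91 ± 0.969 (WT) and 10.4 ± 6.10 (LKO) (limma adjusted p = 0.356), and Txnrd1, thioredoxin reductase, had 12.5 ± 2.33 (WT) and 24.0 ± 5.91 (LKO) (limma adjusted p = 0.402). These 4 genes were higher in all 3 LKO libraries than in any WT library, and Gstm1, a glutathione transferase, was lower in all 3, where 15.4% of all genes did not overlap in one direction or the other. The part of NRF2, CAR and PXR in the transporter values was not tested.

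Of 10 CAR and PXR targets, 0 passed (limma), 6 lay above 0 and 4 below, with a median of 0.52. Cyp2b10, the standard CAR target, had 0.123, 2.18 and 0.424 FPKM in WT against 0.559, 6.18 and 17.6 FPKM in LKO (limma adjusted p = 0.600). Gstm3, a glutathione transferase, was lower in each LKO library, with a mean of 6.57 ± 2.65 FPKM where WT had 40.3 ± 3.03 (log2 difference -2.51 ± 0.32 SE, limma adjusted p = 0.0876), as was Cyp2c55 (mean 1.06 ± 0.400 FPKM where WT had 2.53 ± 0.476, limma adjusted p = 0.354). Sult1e1, oestrogen sulfotransferase, was at 7.73, 7.11 and 0.0847 FPKM in LKO and at most 0.206 in WT (limma adjusted p = 0.482).

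Sequence shared with other genes was limited for the members. Of the 100-base windows of their GENCODE vM21 transcripts, 0.614% for Slco1a1, 0.640% for Slco1a4, 0.480% for Abcb4 and 4.25% for Slco2b1 also occurred in a transcript of another gene, on either strand. For Slco1a1 and Slco1a4 the sharing genes were each other and Slco1a5, and for Slco2b1 the antisense transcript Gm15635. Gm15635 overlaps Slco2b1 on the opposite strand at no more than 0.468 FPKM. No label says whether strand was used in counting, so a small part of the Slco2b1 reads may belong to it. The pseudogene Gm17936 lies within Abcb4 on the same strand and was at 0.0533 to 3.03 FPKM.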

How the data were processed

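RNA of 6 liver samples, 3 WT and 3 LKO, was sequenced, and groups and replicate numbers were taken from sample titles. Per the labels' protocols, TRIzol and column extraction preceded a NEBNext Ultra library preparation. Per the submitters' processing notes, HISAT2 2.0.5, CASAVA, DESeq2 1.20.0, featureCounts 1.5.0-p3 and the build mm10 are named, with no role. The authors deposited 1 FPKM value per gene and library. The unit was read from the values: FPKM times merged exon length (GENCODE vM21, which named 54495 identifiers) gave whole multiples of a library-specific step for 96.1% to 96.4% of the values above 0, with a tolerance of 0.05 read. The implied totals followed median-of-ratios size factors within 0.995 to 1.00, so the deposited FPKM seem to include such a scaling.

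Limma-trend (limma 3.58.1, R 4.3.3) was fitted with robust empirical Bayes to log2(FPKM + 1) of the 11672 genes averaging 0.5 FPKM or more, with genotype as the only term and Benjamini-Hochberg adjustment over all of them (threshold 0.05). The fit was also run on simulated counts, with noise drawn independently for each gene and library. That setting lacks the patterns shared between libraries here, so no result rests on it. Exact permutation tests used scipy 1.17.1. Named genes are all members, up to 4 genes with the smallest p in each other pathway list (values of further listed genes, such as Nr1h4 and Abcg8, are given for background after being seen), and cell type markers; 1 gene that the rule names is not reported here. The members and lists were chosen with earlier results of these data known. Alternatives were no filter, a filter at 1 FPKM, a pseudocount of 0.1, a replicate block, each library or both libraries numbered 1 left out, quantile normalization, library totals, voom on recovered reads and array quality weights.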

Additional observations from a re-analysis of the deposited data

How the results depend on the processing

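Abcb4 lay above 0 under all 15 alternatives (0.82 to 1.15), as did Abcc3 (0.48 to 1.48), and Abcb11, Abcc2 and Slco2b1 lay below 0 under all 15. With each library left out in turn, the log2 difference ran from -0.63 to 0.87 for Slc10a1, from -0.78 to 0.16 for Slco1a1 and from -1.25 to 0.36 for Slco1b2. Slc10a1 turned to -0.088 with quantile normalization, -0.093 with library totals and -0.0041 with voom. With both libraries numbered 1 left out, Slco1a4 was 0.066 and Slco1b2 0.18. The number of members called was 0 under every alternative but array quality weights, where it was 1. Over all genes, 1 was higher and 4 were lower at the threshold. The counts were 0 and 1 without a filter, 0 and 3 with quantile normalization, 1 and 1 with both libraries numbered 1 left out, 621 and 574 with array quality weights, and 0 to 13 and 0 to 4 with 1 library left out. The 13 higher calls came without LKO replicate 3, 0 higher calls came without WT replicate 2, WT replicate 3 or LKO replicate 1, and the lower calls were 1, 0 and 2 without WT replicate 1, WT replicate 3 and LKO replicate 2. With the replicate block they were 0 and 0 (1478 genes at an unadjusted p under 0.05), and 0 members were called. Replicate numbers are not stated to pair animals. Deviations of WT and LKO libraries with the same number correlated at 0.49, 0.30 and -0.02 across genes, and WT replicate 2 correlated more with LKO replicate 3 (0.45) than with its own number. No scaling moved the median difference of all genes by more than 0.084. The causes of these changes were not tested. Abcc4 has a value in the fit without a filter alone (0.37). Depth limits Abcc4, which rests on 13 to 110 reads per library.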

Other observations

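Genes with the pattern most like that of a member over the 6 libraries were sought among genes averaging 5 FPKM or more, by Pearson's r of log2(FPKM + 1), as a description with no test. For Slc10a1 they were Timm17b, a subunit of the mitochondrial import machinery (r = 0.997), Mpv17, a mitochondrial inner membrane protein (r = 0.996), and Cryz, a quinone reductase (r = 0.995). Of the 4686 genes compared, 239 had an r of at least 0.95 with Slc10a1, so these 3 are the top of a large group. For Slco1a1 they were Adssl1, an adenylosuccinate synthase (r = 0.994), Pla1a, a phospholipase (r = 0.993), and 1300017J02Rik (r = 0.991), with 111 genes at an r of at least 0.95. For Abcc4 they were Tollip, an adaptor of Toll-like receptor signalling (r = 0.977), Gpat4, an enzyme of triglyceride synthesis (r = 0.976), and Sntb1, a syntrophin (r = 0.975), with 8 genes at that level. The points share their library scale, and 6 libraries leave many genes with a high r.

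The organic solute transporter gene Slc51b, which works with Slc51a in bile acid export to blood, had 0.805, 0.160 and 1.17 FPKM in WT. In LKO it had 0.361 FPKM in replicate 2 and was listed at 0 in replicates 1 and 3. Slc51b was below the filter on low values. On a gene of 1 kilobase, 3 reads correspond to 0.156 to 0.236 FPKM, so values at 0 may reflect depth, which was not tested. Slc51b was named after its values were seen.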
